A study of Mus musculus with 12 samples.

Results

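The 36 genes described here act in homologous recombination (HR) and in the Fanconi anemia pathway of DNA repair. They were taken as the rows of the deposited TPM table whose gene name was one of 36 listed names, so they were chosen by name and not by level, and they make up 36 of the 55385 genes in the table. TPM normalises the reads of a gene to the length of its transcripts and to the library as a whole, so that levels of different genes can be compared. All 36 are protein-coding, and positions are given on GRCm38, on which the members' coordinates in the table were identical to those of the gencode release used here.

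RNA-seq was performed on sorted mouse spermatogonia in 6 groups of 2 libraries, each library from pooled cells. WT Aundiff (undifferentiated spermatogonia, E-Cadherin+ CD9high KIT-) and WT Adiff (differentiating spermatogonia, E-Cadherin+ CD9medium KIT+) came from adult C57BL/6 males of 2 to 3 mo without treatment. Aundiff were also sorted from mice of a C57BL/6 X FVB/NJ background under the labels PRC1cKO (*Ring1*-/-; *Rnf2* F/-; Ddx4-Cre) and PRC1ctrl (*Ring1*-/-; *Rnf2* F/+; Ddx4-Cre), either untreated at 2 mo or after Win18446. Both labels therefore share the loss of *Ring1* and the germ cell Cre driven by Ddx4, and they differ in the second *Rnf2* allele. *Ring1* and *Rnf2* encode the catalytic subunits of Polycomb repressive complex 1 (PRC1). Win18446 inhibits the synthesis of retinoic acid, the signal for spermatogonial differentiation, and was given by about 30 daily subcutaneous injections of 50 µl at 40 µg/µl in DMSO from 1 mo of age. The untreated PRC1 libraries were made with a Smart-Seq2 low-input kit, whereas the WT and Win18446 libraries were made with a TruSeq stranded mRNA kit. Treatment and library kit thus cannot be told apart between the 2 sets of PRC1 libraries.

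In HR, the ends of a DNA double-strand break are cut back to single strands, BRCA1, PALB2 and BRCA2 prepare these for strand invasion, and the lost sequence is copied from the sister chromatid. In the Fanconi pathway, a core complex ubiquitinates FANCD2 and FANCI at crosslinks that block replication forks, and nucleases and HR complete the repair. Both act mostly in S and G2 phase, and germ cells depend on them: loss of many Fanconi genes depletes the germline, and spermatocytes use much of the HR machinery for meiotic recombination.

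All 36 members reached 1 TPM in at least 2 libraries of each comparison and were tested. The smaller number of genes detected in the Smart-Seq2 libraries (12422 to 13986 genes at 1 TPM or more, against 14796 to 16599 in the TruSeq libraries) came with a larger mitochondrial share (12.5% to 16.7% against 4.28% to 6.69%). *Rnf2* was not lower under the label PRC1cKO, at 28.3 and 47.6 TPM in PRC1ctrl and 56.7 and 67.5 TPM in PRC1cKO at 2 mo, and at 78.1 and 67.2 TPM and 86.2 and 93.1 TPM after Win18446. Whole-gene TPM does not show whether the floxed exons were lost, so the genotypes are those of the labels throughout. *Ring1* was at 0.03 to 0.25 TPM in all 8 PRC1 libraries and at 8.61 to 19.9 TPM in WT.

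The sum of the 36 members was 744 and 768 TPM in WT Aundiff and 1326 and 1158 TPM in WT Adiff. In the untreated PRC1ctrl libraries it was 476 and 504 TPM, and in the untreated PRC1cKO libraries 699 and 787 TPM. After Win18446 it was 1061 and 1140 TPM in PRC1ctrl and 716 and 772 TPM in PRC1cKO. The summed level was thus higher in PRC1cKO than in PRC1ctrl at 2 mo and lower after Win18446, with no overlap of groups in either. In sorted bulk cells, fewer cells of one type and less RNA per cell cannot be told apart.

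**Figure D1:**
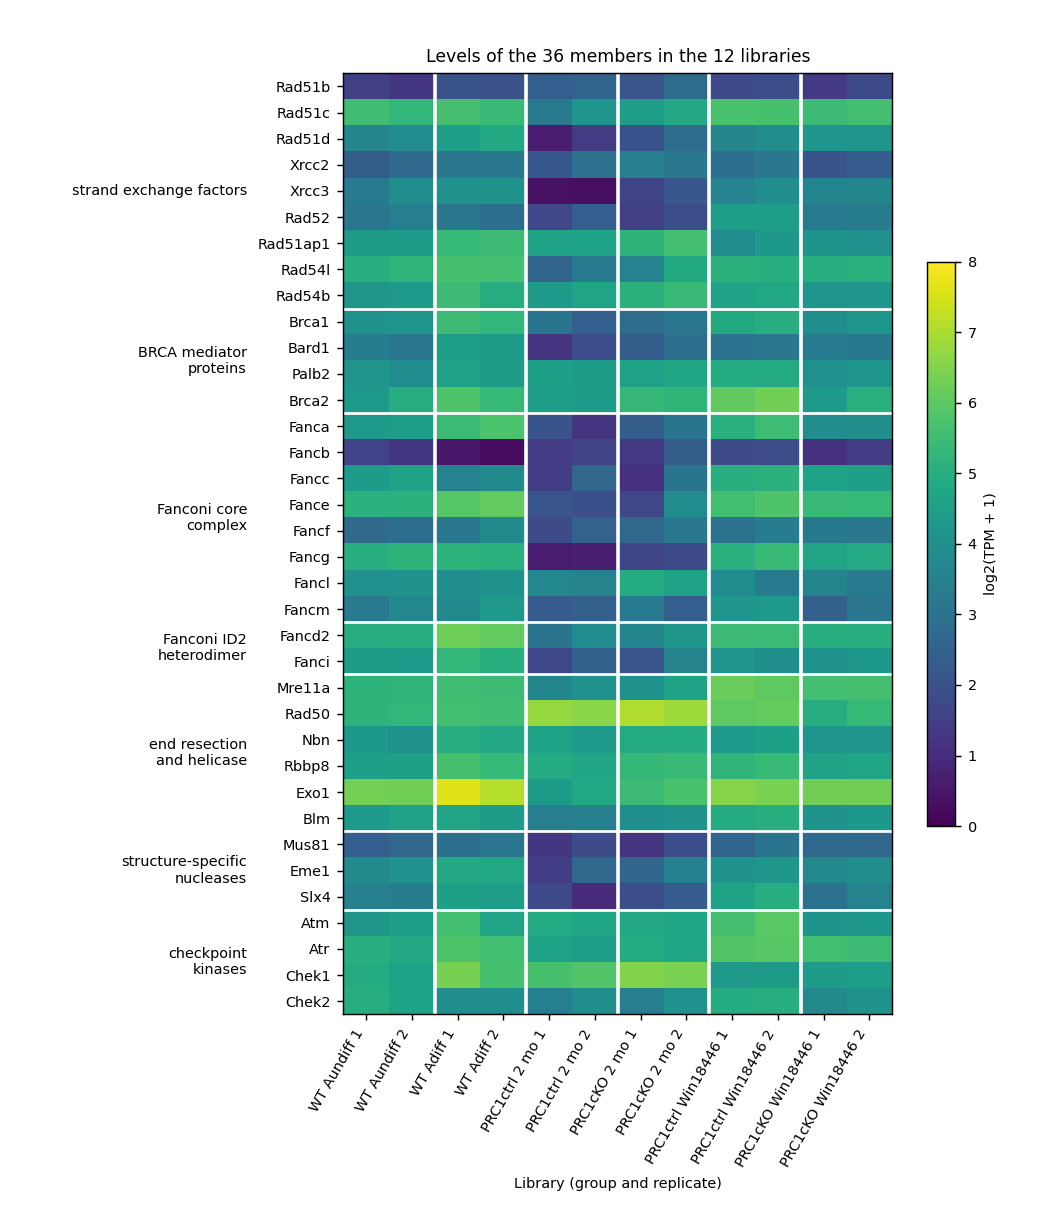
Level of each of the 36 members (rows, grouped by role) in each of the 12 libraries (columns, 2 per group), as log2(TPM + 1) on a colour scale from 0 to 8. The highest group mean is in WT Adiff for 15 members, in Win18446 PRC1ctrl for 13 and in untreated PRC1cKO for 8, and *Fancg* and *Xrcc3* are dark in the 4 untreated PRC1 columns.

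The first comparison asked how the repair genes change as spermatogonia differentiate in WT testes. More members rose than fell: 18 of 36 were higher in WT Adiff and 3 were lower at an adjusted p under 0.05, while 23.4% of all tested genes were higher and 14.7% lower. Of these, 8 members (*Brca1*, *Chek1*, *Fanca*, *Fancd2*, *Bard1*, *Slx4*, *Exo1* and *Rad51ap1*) also passed a log2 fold change of 1, as did 11.1% of all genes, and 1 (*Fancb*) passed it downward, as did 9.24%. The median log2 fold change was 0.70 over the members and 0.15 over all 15470 tested genes, and 31 of 36 members lay above 0 against 58.1% of all genes. The risers included 3 of 4 BRCA mediators, both ID2 members and 4 of 9 strand exchange factors, whereas the Fanconi core complex was split, with 2 of 8 higher and 2 lower. The S phase and proliferation genes moved in the same comparison: 13 of 15 rose, none passed downward, and their median was 1.01, and the part of proliferation in the members' rise was not tested. Under median-of-ratios scaling 16 members were higher and 3 lower, against 15.98% and 18.3% of all genes. Without the first WT Aundiff library fewer members passed, as did fewer of all genes. The calls lost in that fit were those of *Rad51d*, *Rad54l*, *Rad54b*, *Brca2*, *Fancc*, *Fanci*, *Nbn*, *Eme1* and *Chek2*, and *Fancb* no longer met the filter. The median was then 0.70 over the members and 0.15 over all tested genes. With 2 libraries against 2, the smallest two-sided p that an exact permutation test allows is 0.33 for a single gene, so each p is an adjusted p from limma, which borrows the spread across genes, and values after ± are standard errors on the log2(TPM + 1) scale (n = 2 libraries per group).

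The second comparison asked what changed in untreated Aundiff at 2 mo under the label PRC1cKO. No member passed in limma in either direction, and 7 of 36 had an unadjusted p under 0.05, all of them with higher values in PRC1cKO, while 14.2% of all tested genes had such a p. Few genes passed at all, 0.222% of 13953 upward and 1.94% downward, with or without the fold change cutoff (0.222% and 1.94%). Of the 36 members 33 lay above 0, as did 65.1% of all tested genes, with a median log2 difference of 0.71 against 0.22 over all tested genes, and a standard error per member of 0.25 to 0.79. In 23 members both PRC1cKO libraries were above both PRC1ctrl libraries, a pattern that 27.5% of all tested genes showed, and in none were both below, against 17.3% of all genes. The S phase list had a sum of 1338 and 1516 TPM in PRC1ctrl and 2290 and 2284 TPM in PRC1cKO, though none of its 15 genes passed. Markers of spermatids, a later cell type that summed to 929 and 992 TPM in WT Aundiff, summed to 1008 and 2489 TPM in the untreated PRC1ctrl libraries and to 59.3 and 51.0 TPM in PRC1cKO, and macrophage markers to 10.3 and 119 TPM and to 139.9 and 705 TPM. *Cd74* alone made up 8.18 and 112 TPM of the macrophage sums in PRC1ctrl and 127 and 680 TPM in PRC1cKO. Of the 7 macrophage genes, 3 were tested and none passed. Leydig cell markers summed to 1.36 and 1.32 TPM in PRC1ctrl and 22.3 and 62.3 TPM in PRC1cKO, with 1 of 6 genes (*Hsd3b1*) higher. Markers of differentiating spermatogonia summed to 240.5 and 250.4 TPM and to 565 and 604 TPM, with none of 7 passing, and those of undifferentiated spermatogonia to 358 and 438 TPM and to 153 and 164 TPM, with 1 of 9 (*Nanos3*) lower. *Nanos3* alone was at 286 and 349 TPM in PRC1ctrl and 92.4 and 80.6 TPM in PRC1cKO. The median log2 difference of these 9 undifferentiated markers was -0.11. The part of these cell types in the members' levels was not tested.

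The third comparison set PRC1cKO against PRC1ctrl after Win18446, in cells whose differentiation was blocked from without. Here 18 of 36 members fell and none rose, while 26.7% of all tested genes were lower and 5.87% were higher. In 7 of the 18 (*Atm*, *Slx4*, *Brca2*, *Fancm*, *Fanca*, *Rad52* and *Chek2*) the fall passed a log2 fold change of 1, as it did in 10.9% of all genes downward and 1.27% upward. The median log2 difference was -0.44 over the members and -0.19 over all 16521 tested genes, a distance of -0.25, and 6 of 36 members lay above 0, against 34.2% of all genes. Under median-of-ratios scaling, which moved the median of all genes from -0.19 to 0.03, 13 members were lower and 1 (*Rad51d*) was higher, against 17.7% and 15.45% of all genes. Under quantile normalization 13 were lower and 2 (*Rad51d* and *Chek1*) were higher, against 14.6% and 13.5%. Leaving out the first PRC1cKO library left fewer members lower, as it left fewer of all genes. The calls lost in that fit were those of *Xrcc2*, *Rad54b*, *Brca1*, *Palb2*, *Fancc*, *Fancd2*, *Mre11a*, *Rbbp8*, *Blm* and *Atr*. The median was then -0.41 over the members and -0.16 over all tested genes. The S phase genes went the other way, with 6 of 15 higher and none lower, and so did 5 of 7 genes of differentiating spermatogonia, *Kit* among them, although KIT protein was used in the sort. Of the other 2, *Stra8* was lower (-0.50 ± 0.15, adjusted p = 0.0460) and *Sohlh1* did not pass (-0.021 ± 0.11, adjusted p = 0.902).

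**Figure D2:**
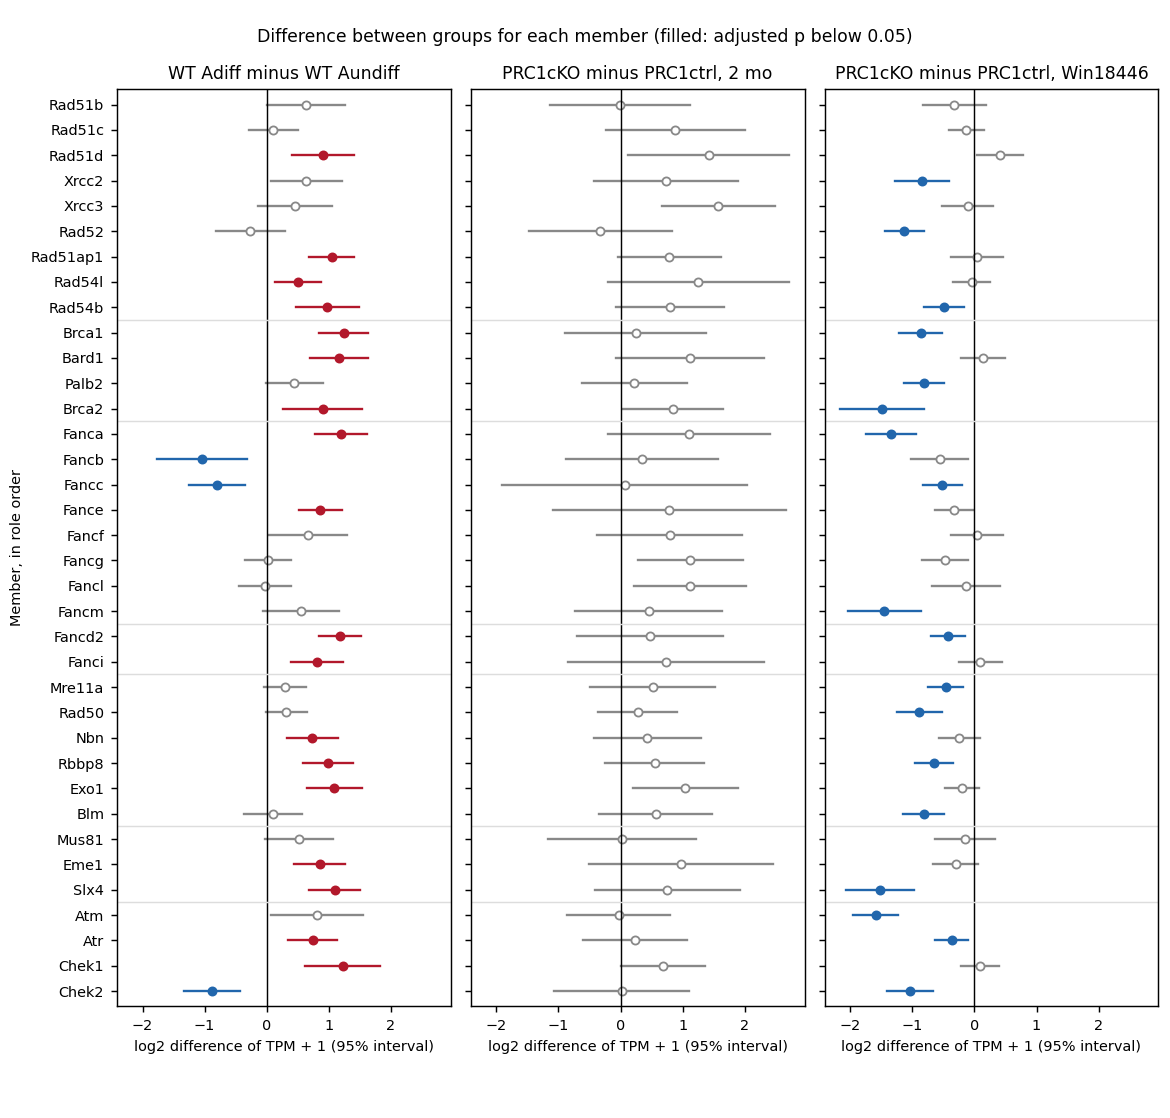
Log2 difference of TPM + 1 for each member (rows in role order) in the 3 comparisons, with the 95% interval from limma, 2 libraries per group. Filled points passed an adjusted p of 0.05: 18 higher and 3 lower in WT, none at 2 mo, and 18 lower after Win18446.

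Promoter sequence was examined for every member with a promoter window, whether or not it passed, because many HR genes are known targets of E2F factors in S phase. A promoter window of 250 bases before and 50 after the start was found in RefSeq (GRCm38.p6) for 28 of the 36 members. For *Fancc* the window belongs to a start 65533 bases from the gene's 5′ end in the table. An E2F site (TTTCCCGC, TTTCGCGC, TTTGGCGC or TTTGCCGC, on either strand) was found in 5 of the 28 member windows (17.9%) and in 2.64% of all 20933 windows, or 4.16% of those of genes tested in WT. The NF-Y box CCAAT was found in 17 (60.7%) against 38.5% of all windows, and the CHR motif TTTGAA in 2 (7.14%) against 16.99%. In the windows of genes tested in WT, these 2 shares were 39.75% and 11.76%. None of the motifs contains another, no test was made, and a match is not a bound site.

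The E2F sites lay in the windows of *Bard1* and *Brca2*, which rose in WT, *Chek2*, which fell, and *Fancg* and *Rad51c*, which did not pass. The 4 members with a site before the start are shown 5′ to 3′ on the strand of the gene, with the site in capitals, limited to the bases before the gene as the table gives it, or to 30 bases around the site where that lies inside the gene (*Fancg*). They are *Bard1* at chr1:71103147-71103222 (minus strand), *Brca2* at chr5:150522371-150522620 (plus strand), *Fancg* at chr4:43010335-43010364 (minus strand) and *Chek2* at chr5:110839733-110839978 (plus strand).
Bard1: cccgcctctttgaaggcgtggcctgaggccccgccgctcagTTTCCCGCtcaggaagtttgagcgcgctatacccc
Brca2: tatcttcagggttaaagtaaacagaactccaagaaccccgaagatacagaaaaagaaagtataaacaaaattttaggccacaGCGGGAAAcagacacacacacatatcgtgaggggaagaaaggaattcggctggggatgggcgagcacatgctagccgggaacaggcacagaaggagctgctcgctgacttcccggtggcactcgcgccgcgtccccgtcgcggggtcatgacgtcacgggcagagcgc
Fancg: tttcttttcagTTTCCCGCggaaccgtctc
Chek2: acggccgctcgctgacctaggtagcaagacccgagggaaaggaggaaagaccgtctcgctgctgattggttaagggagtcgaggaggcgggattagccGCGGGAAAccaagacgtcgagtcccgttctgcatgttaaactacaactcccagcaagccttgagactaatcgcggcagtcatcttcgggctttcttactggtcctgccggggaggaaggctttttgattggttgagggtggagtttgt
*Bard1* and *Fancg* carry the letters TTTCCCGC on the gene's strand, and *Brca2* and *Chek2* carry their reverse complement.

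Among the strand exchange factors, *Rad51ap1* (chr6:126923050-126939587, minus strand), a protein that helps DNA strands pair, was at 19.9 and 19.8 TPM in WT Aundiff and 40.1 and 43.8 TPM in WT Adiff, a log2 rise of 1.04 ± 0.15 (adjusted p = 0.00431) with no overlap of the groups. After Win18446 it was at 13.5 and 18.2 TPM in PRC1ctrl and 16.7 and 15.7 TPM in PRC1cKO, groups that overlapped. *Rad54b*, a translocase related to RAD54, rose from 17.9 and 18.5 to 44.1 and 30.4 TPM in WT, by 0.97 ± 0.21 (adjusted p = 0.0151), and fell after Win18446 from 23.2 and 26.1 to 17.3 and 17.3 TPM, by -0.49 ± 0.13 (adjusted p = 0.0327). Of its exonic bases, 35.8% are shared with *Fsbp* on the same strand, so its reads cannot be fully told apart from those of that gene. *Rad54l*, the RAD54 motor that remodels DNA during strand invasion, rose in WT from 31.8 and 36.98 to 50.2 and 47.8 TPM (0.50 ± 0.15, adjusted p = 0.0409), a call kept under 4 of 14 alternatives, and after Win18446 its groups overlapped at 34.4 and 31.7 TPM in PRC1ctrl and 30.7 and 33.5 TPM in PRC1cKO.

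*Rad51b*, *Rad51c*, *Rad51d*, *Xrcc2* and *Xrcc3* are 5 related genes whose proteins form complexes that support strand exchange, and of these only *Rad51d* passed in WT. It went from 11.6 and 13.6 to 21.01 and 27.9 TPM, a rise of 0.90 ± 0.21 (adjusted p = 0.0178), and it had the highest log2 difference of the 36 members after Win18446, 0.41 ± 0.16 (adjusted p = 0.0857), with 11.4 and 14.2 TPM in PRC1ctrl and 17.5 and 17.1 TPM in PRC1cKO. *Rad51c*, whose protein is found in both of these complexes, was the most abundant of the 5 in the TruSeq libraries at 38.4 to 50.6 TPM and passed nowhere. *Xrcc2* fell after Win18446 from 6.59 and 7.93 to 3.18 and 4.03 TPM, by -0.84 ± 0.18 (adjusted p = 0.0153), a call that held under 11 of 14 alternatives and was lost without the first PRC1cKO library. *Xrcc3* had the largest difference at 2 mo, from 0.27 and 0.25 TPM in PRC1ctrl to 2.09 and 3.53 TPM in PRC1cKO (1.57 ± 0.36, adjusted p = 0.116), and *Rad51d* came next, at 0.51 and 1.70 TPM in PRC1ctrl and 3.07 and 6.17 TPM in PRC1cKO (1.42 ± 0.52, adjusted p = 0.303). Neither pair of groups overlapped. At under 1 TPM in both PRC1ctrl libraries, *Xrcc3* lies where log2(TPM + 1) understates a fold. *Rad54l* followed, at 4.98 and 8.85 TPM in PRC1ctrl and 10.6 and 27.8 TPM in PRC1cKO (1.25 ± 0.58, adjusted p = 0.427). *Rad51b* stayed low in every group, at 1.38 to 6.16 TPM, and its difference at 2 mo was -0.0089 ± 0.45.

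*Rad52* (chr6:119902698-119922828, plus strand), which anneals single strands in repair, is not one of these related genes. It was at 21.4 and 20.9 TPM in the Win18446 PRC1ctrl libraries, against 9.11 and 9.18 TPM in PRC1cKO, a fall of -1.12 ± 0.13 (adjusted p = 0.00279) that held under all 14 alternatives. In WT it was at 7.86 and 10.00 TPM in Aundiff and 8.07 and 6.44 TPM in Adiff, groups that overlapped (-0.27 ± 0.23, adjusted p = 0.397). At 2 mo it had the lowest log2 difference of all members, -0.33 ± 0.46 (adjusted p = 0.778), from 2.23 and 4.28 to 1.83 and 2.83 TPM.

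Among the BRCA mediator proteins, *Brca1* (chr11:101488764-101551955, minus strand), the scaffold that promotes end resection and recruits PALB2, had the largest WT rise of the 36 members, from 15.95 and 17.6 to 43.7 and 38.2 TPM (1.24 ± 0.16, adjusted p = 0.00330). Its ubiquitin ligase partner *Bard1*, one of the members with an E2F site printed above (chr1:71027498-71103146, minus strand) went from 9.49 and 7.82 to 21.5 and 19.6 TPM (1.16 ± 0.19, adjusted p = 0.00615), and both calls held under all 14 alternatives. After Win18446 the partners parted: *Brca1* fell from 28.1 and 30.8 to 14.3 and 17.2 TPM (-0.87 ± 0.15, adjusted p = 0.00673), whereas *Bard1*, at 7.35 and 8.01 TPM in PRC1ctrl and 8.57 and 8.50 TPM in PRC1cKO, had one of the 3 highest differences, 0.14 ± 0.15 (adjusted p = 0.519). The difference between the partners was not tested.

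*Brca2* (chr5:150522630-150570329, plus strand), a mediator of strand invasion, was at 19.3 and 30.9 TPM in WT Aundiff and 54.2 and 39.6 TPM in WT Adiff, a rise of 0.90 ± 0.26 (adjusted p = 0.0383) that passed under 5 of 14 alternatives and was lost, among others, under both other scalings and without the first WT Aundiff or the first WT Adiff library. After Win18446 it fell from 65.2 and 77.6 TPM, the highest of any group, to 18.7 and 32.6 TPM (-1.49 ± 0.27, adjusted p = 0.0130), a call lost without a filter on low values and without either PRC1ctrl library (largest adjusted p 0.129 over the 14 alternatives). At 2 mo its direction was the other one, with 21.1 and 20.1 TPM in PRC1ctrl and 38.8 and 36.7 TPM in PRC1cKO, groups without overlap and a difference of 0.84 ± 0.32 (adjusted p = 0.324). *Palb2*, the bridge between BRCA1 and BRCA2, did not pass in WT (0.44 ± 0.19, adjusted p = 0.112) and fell after Win18446 from 29.3 and 28.9 to 15.2 and 17.2 TPM (-0.81 ± 0.13, adjusted p = 0.00610). So 3 of the 4 mediators rose in WT and 3 of the 4 fell after Win18446, with *Bard1* in the first set only and *Palb2* in the second only.

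**Figure D3:**
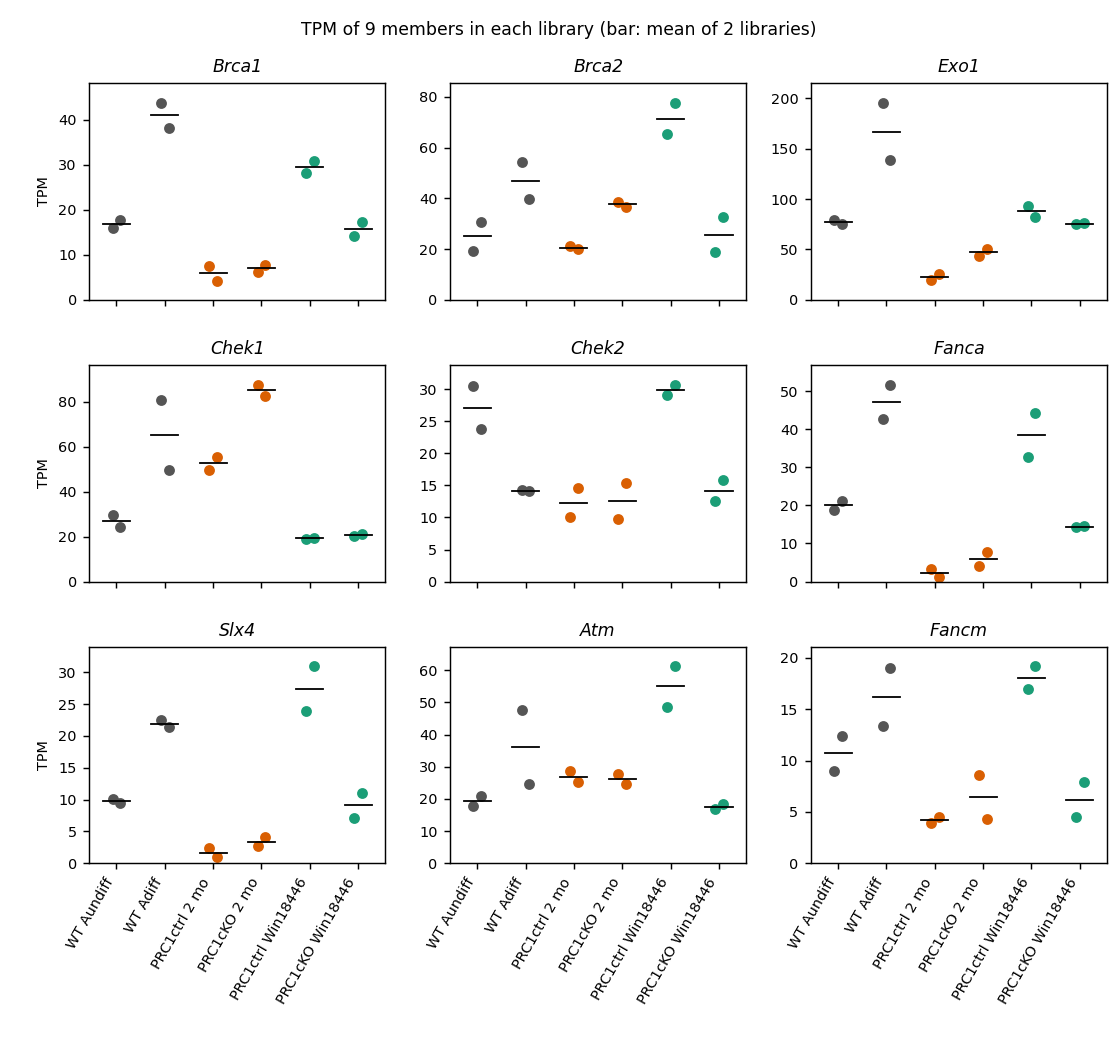
TPM of 9 members in each library (points) with the mean of the 2 libraries of a group (horizontal bars), each panel starting at 0. *Atm*, *Slx4*, *Fanca* and *Brca2* are high in the Win18446 PRC1ctrl libraries and lower in both PRC1cKO libraries, *Exo1* is highest in WT Adiff and *Chek1* in untreated PRC1cKO, and *Chek2* is lower in both WT Adiff libraries.

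The 8 members of the Fanconi core complex, which together ubiquitinate the ID2 pair, did not move as one. *Fanca* (chr8:123268300-123318576, minus strand), a scaffold subunit, rose in WT from 18.7 and 21.3 to 42.6 and 51.8 TPM (1.20 ± 0.17, adjusted p = 0.00424) and fell after Win18446 from 32.6 and 44.3 to 14.3 and 14.6 TPM (-1.34 ± 0.17, adjusted p = 0.00312), with no overlap and under all 14 alternatives in both. *Fance*, which binds FANCD2 to the complex, rose in WT from 33.4 and 34.4 to 58.2 and 66.8 TPM (0.86 ± 0.14, adjusted p = 0.00670), and its difference after Win18446 was -0.32 ± 0.13 (adjusted p = 0.0995). *Fancb* (chrX:164980592-164997272, plus strand) fell in WT, from 2.05 and 1.41 to 0.46 and 0.18 TPM (-1.05 ± 0.30, adjusted p = 0.0357), at levels of 0.18 to 2.05 TPM, and it passed under 7 of the 11 alternatives that could be run, not without the second WT Adiff library. *Fancc*, a subunit of the same complex, fell in WT from 20.1 and 23.3 to 10.98 and 13.1 TPM (-0.80 ± 0.19, adjusted p = 0.0189) and again after Win18446 from 31.4 and 34.5 to 23.8 and 21.8 TPM (-0.51 ± 0.13, adjusted p = 0.0246), the latter under 7 of 14 alternatives and under neither other scaling. An overlap with genes on the other strand covers 18.6% of the exonic bases of *Fancc* and 10.5% of those of *Fanca*, and the Smart-Seq2 kit does not mark strand.

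*Fancm* (chr12:65075603-65132058, plus strand), the translocase that anchors the complex at stalled forks, did not pass in WT (0.55 ± 0.25, adjusted p = 0.129) and fell after Win18446 from 16.98 and 19.2 to 4.51 and 7.86 TPM (-1.45 ± 0.24, adjusted p = 0.00699), under all 14 alternatives. The ubiquitin ligase subunit *Fancl*, with its difference of -0.028 ± 0.17 (adjusted p = 0.915) in WT and -0.13 ± 0.23 (adjusted p = 0.685) after Win18446, passed in neither. Its 2 mo levels of 12.2 and 10.9 TPM in PRC1ctrl and 29.2 and 23.5 TPM in PRC1cKO did not overlap (1.12 ± 0.36, adjusted p = 0.241). *Fancg*, a core subunit that binds FANCA, did not differ past the threshold in WT, with 31.7 and 36.2 TPM in Aundiff and 35.4 and 33.4 TPM in Adiff (0.021 ± 0.15, adjusted p = 0.928) or after Win18446 (-0.47 ± 0.16, adjusted p = 0.0598). In the Smart-Seq2 libraries it was at 0.54 and 0.58 TPM in PRC1ctrl and 2.19 and 2.63 TPM in PRC1cKO (1.12 ± 0.34, adjusted p = 0.207), against 24.7 to 41.8 TPM in the TruSeq libraries. *Fancf*, the adaptor of the complex, was at 5.86 to 12.9 TPM in the TruSeq libraries and passed nowhere.

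In the Fanconi ID2 heterodimer, *Fancd2* (chr6:113531682-113597017, plus strand), which clamps onto DNA once ubiquitinated, rose in WT from 30.4 and 30.9 to 74.2 and 66.5 TPM, by 1.17 ± 0.14 (adjusted p = 0.00258), the smallest adjusted p of the 36 members in that comparison. Its partner *Fanci* rose from 19.6 and 19.2 to 38.7 and 31.1 TPM (0.81 ± 0.17, adjusted p = 0.0146). After Win18446, *Fancd2* fell from 43.8 and 42.9 to 31.98 and 32.3 TPM (-0.42 ± 0.11, adjusted p = 0.0315), a call that held under 4 of 14 alternatives, and *Fanci*, at 17.1 and 14.99 TPM in PRC1ctrl and 16.4 and 18.04 TPM in PRC1cKO, had a difference of 0.10 ± 0.14 (adjusted p = 0.640).

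In end resection, *Exo1* (chr1:175880581-175913489, plus strand), the exonuclease of long-range resection, was the most abundant member in WT Adiff. It rose from 78.8 and 75.5 to 195 and 138 TPM (1.08 ± 0.18, adjusted p = 0.00681) under all 14 alternatives, and its untreated levels of 19.3 and 25.9 TPM in PRC1ctrl and 43.5 and 50.9 TPM in PRC1cKO did not overlap (1.04 ± 0.34, adjusted p = 0.244). After Win18446 its difference was -0.21 ± 0.11 (adjusted p = 0.211). *Rbbp8*, which encodes the resection factor CtIP, rose in WT from 21.9 and 22.4 to 49.8 and 40.1 TPM (0.98 ± 0.17, adjusted p = 0.00704) and fell after Win18446 from 36.6 and 41.1 to 23.7 and 24.9 TPM (-0.65 ± 0.13, adjusted p = 0.0104).

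The MRN complex, which senses the break and starts resection, was uneven. *Rad50*, its ATPase, fell after Win18446 from 63.2 and 67.9 to 30.6 and 39.8 TPM (-0.89 ± 0.15, adjusted p = 0.00703) under all 14 alternatives, and the nuclease *Mre11a* fell from 71.9 and 63.3 to 48.3 and 49.2 TPM (-0.46 ± 0.12, adjusted p = 0.0274), under 5 of 14. *Nbn*, which ties the complex to ATM, was the one subunit to rise in WT, from 18.1 and 16.1 to 31.4 and 26.9 TPM (0.73 ± 0.17, adjusted p = 0.0191), and it did not pass after Win18446 (-0.24 ± 0.14, adjusted p = 0.219). The helicase *Blm*, which resolves recombination intermediates, did not pass in WT (0.10 ± 0.19, adjusted p = 0.727) and fell after Win18446 from 29.3 and 31.9 to 15.8 and 18.3 TPM (-0.81 ± 0.14, adjusted p = 0.00692). *Rad50* was the most abundant member in the untreated PRC1 libraries, at 94.1 to 129.9 TPM, above every TruSeq value (30.6 to 67.9 TPM).

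Of the structure-specific nucleases and their scaffold, *Slx4* (chr16:3979105-4003770, minus strand), the scaffold that holds nucleases at crosslinks and junctions, rose in WT from 10.1 and 9.42 to 22.5 and 21.3 TPM (1.09 ± 0.17, adjusted p = 0.00561) and fell after Win18446 from 23.8 and 30.9 to 7.15 and 10.98 TPM (-1.51 ± 0.23, adjusted p = 0.00517), each under all 14 alternatives. *Eme1* rose in WT from 13.3 and 15.6 to 27.5 and 26.03 TPM (0.85 ± 0.17, adjusted p = 0.0117), while *Mus81*, the catalytic partner of EME1, did not pass there (0.52 ± 0.23, adjusted p = 0.117). Neither partner passed after Win18446, with differences of -0.30 ± 0.15 for *Eme1* and -0.15 ± 0.20 for *Mus81*.

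Among the checkpoint kinases, *Atm* (chr9:53439149-53536740, minus strand), the kinase activated by double-strand breaks, had the largest fall of the 36 members after Win18446. It was at 48.7 and 61.3 TPM in PRC1ctrl and 16.7 and 18.4 TPM in PRC1cKO (-1.59 ± 0.15, adjusted p = 0.00203), a difference that held under all 14 alternatives. In WT it was at 17.7 and 20.8 TPM in Aundiff and 47.8 and 24.7 TPM in Adiff, with the Adiff libraries far apart and no pass (0.81 ± 0.31, adjusted p = 0.0797), and at 2 mo its groups overlapped at 28.6 and 25.1 TPM in PRC1ctrl and 27.7 and 24.8 TPM in PRC1cKO (-0.030 ± 0.33, adjusted p = 0.974). *Atr*, the kinase of stalled forks, rose in WT from 32.3 and 27.7 to 54.2 and 46.9 TPM (0.74 ± 0.16, adjusted p = 0.0155) and fell after Win18446 from 57.5 and 59.5 to 46.6 and 43.7 TPM (-0.37 ± 0.11, adjusted p = 0.0476), close to the threshold and under 3 of 14 alternatives.

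The effector kinases went opposite ways in WT. *Chek1* (chr9:36708482-36727065, minus strand), the target of ATR, rose from 29.4 and 24.1 to 80.95 and 49.8 TPM (1.22 ± 0.25, adjusted p = 0.0125), and *Chek2* (chr5:110839979-110874145, plus strand), the target of ATM, fell from 30.6 and 23.8 to 14.3 and 14.1 TPM (-0.88 ± 0.19, adjusted p = 0.0140). Both calls were lost without 1 WT Aundiff library, the second for *Chek1* and the first for *Chek2*. After Win18446, *Chek2* fell as well, from 29.2 and 30.8 to 12.6 and 15.8 TPM (-1.04 ± 0.15, adjusted p = 0.00444) under all 14 alternatives, and *Chek1*, at 19.04 and 19.3 TPM in PRC1ctrl and 20.1 and 21.1 TPM in PRC1cKO, had a difference of 0.094 ± 0.13 (adjusted p = 0.609). At 2 mo *Chek1* was at 49.9 and 55.3 TPM in PRC1ctrl and 87.7 and 82.7 TPM in PRC1cKO, without overlap (0.69 ± 0.27, adjusted p = 0.343), and *Chek2* at 10.03 and 14.6 TPM in PRC1ctrl and 9.69 and 15.4 TPM in PRC1cKO, with overlap.

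The WT and Win18446 comparisons share no library, so their directions can be set side by side. Of the 18 members that rose with differentiation in WT, 8 fell under the label PRC1cKO after Win18446 (*Rad54b*, *Brca1*, *Brca2*, *Fanca*, *Fancd2*, *Rbbp8*, *Slx4* and *Atr*) and none rose. Among all 14499 genes tested in both, 3475 rose in WT, and of these 694 (19.97%) fell and 363 rose after Win18446. Of the 3 members that fell in WT, *Fancc* and *Chek2* also fell after Win18446, as did 27.1% of the 2203 genes that fell in WT.

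The levels after Win18446 were set against the untreated WT Aundiff levels, with no test, since strain, genotype and treatment differ. The Win18446 PRC1ctrl libraries were both above both WT Aundiff libraries in 25 of the 36 members, while 54.3% of all tested genes were. Over all 36 members, PRC1cKO was above WT Aundiff in 8 and below it in 11, against 37.9% and 27.2% of all genes. *Atm* was at 17.7 and 20.8 TPM in WT Aundiff, 48.7 and 61.3 TPM in PRC1ctrl and 16.7 and 18.4 TPM in PRC1cKO.

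Transcript length moved with this comparison. Coding genes were divided by transcript length into 4 bins of like size. Their median log2 difference after Win18446 went from 0.06 in the shortest bin to -0.45 in the longest (over 4733 bases), where 46.6% of genes were lower. Of the 36 members, 13 lay in that longest bin, 11 of them were lower, and their median was -0.81. With the trend on length removed, the longest coding genes had a median of -0.21 and these 13 members one of -0.61, with 29.1% and 8 of 13 lower, and 17 of the 36 members were lower in all, against 25.7% of all tested genes. Differences in the control group followed length too: Win18446 PRC1ctrl minus WT Aundiff had a median of -0.03 in the shortest bin of coding genes and 0.61 in the longest. In WT the trend was smaller, from 0.03 to 0.26, and 16 members were still higher after its removal.

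**Figure D4:**
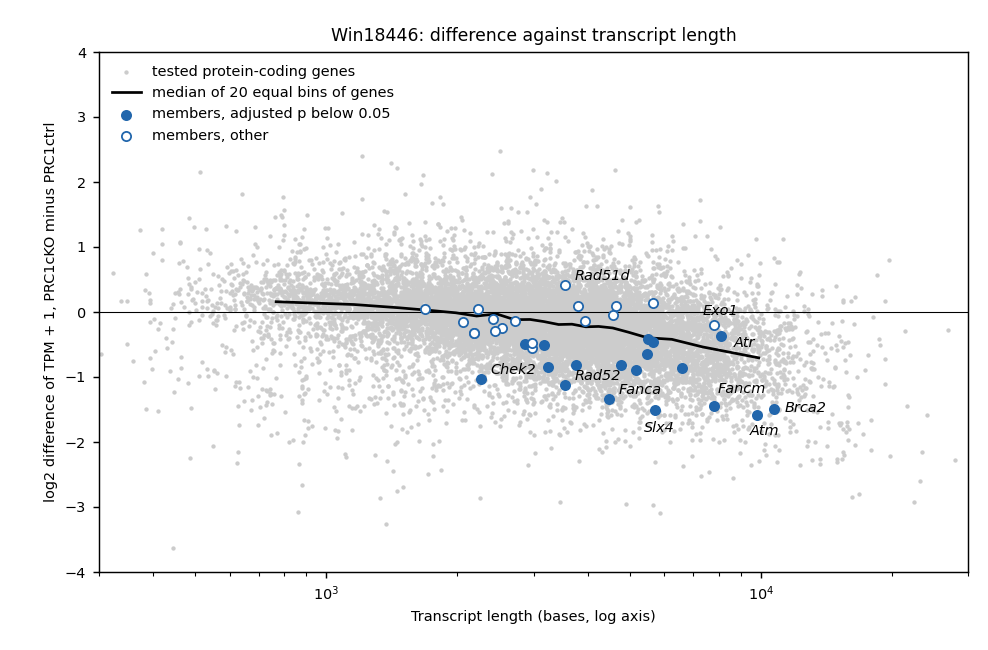
Log2 difference after Win18446 (PRC1cKO minus PRC1ctrl, TPM + 1) against transcript length in bases on a log axis, for 13917 tested coding genes (grey, 18 of them outside the axes), their median in 20 equal bins (line) and the 36 members (circles, filled where lower at an adjusted p under 0.05). The line declines with length, and *Atm*, *Brca2*, *Slx4*, *Fancm* and *Fanca* lie below it.

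The difference between the PRC1 label contrasts was tested over the 8 PRC1 libraries, as the contrast after Win18446 minus that at 2 mo. None of the 36 members lay above 0, against 27.9% of all 18354 tested genes, and the median was -1.08 against -0.41. Under median-of-ratios scaling 6 members lay above 0, against 58.04% of all genes. It passed downward in 7 members and upward in none, while 5.03% of all tested genes passed downward and 2.77% upward. The 7 were *Fanca* (-2.44 ± 0.55, adjusted p = 0.0444), *Brca2* (-2.33 ± 0.41, adjusted p = 0.0224), *Slx4* (-2.27 ± 0.51, adjusted p = 0.0442), *Xrcc3* (-1.68 ± 0.37, adjusted p = 0.0434), *Fancg* (-1.60 ± 0.33, adjusted p = 0.0337), *Atm* (-1.55 ± 0.31, adjusted p = 0.0332) and *Blm* (-1.38 ± 0.30, adjusted p = 0.0420). These 7 calls were lost without any one of the 4 Win18446 libraries or without the second untreated PRC1cKO library, fits in which few genes passed at all. With one library left out, the median was -1.36 to -0.78 over the members and -0.61 to -0.22 over all tested genes. With median-of-ratios scaling 1 member passed downward and none upward, against 1.54% and 5.28% of all genes. The members nearest to no difference were *Mus81* (-0.17 ± 0.50), *Rad51b* (-0.31 ± 0.43) and *Fancc* (-0.58 ± 0.92). Treatment and kit cannot be told apart in this test, and it shares its libraries with the contrasts it compares.

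Other genes of the pathways gave a wider view. Of 34 further HR and Fanconi genes, 15 rose and 3 fell in WT with a median of 0.52, against 23.4% and 14.7% of all tested genes. After Win18446 1 rose and 6 fell of 33 tested, against 5.87% and 26.7% of all tested genes. Their median there, -0.08, lay above the all-gene median of -0.19. *Polq*, the polymerase of microhomology-mediated end joining, fell most, from 22.7 and 29.8 to 3.40 and 3.78 TPM (-2.56 ± 0.18, adjusted p = 0.00147), with 2.48 and 2.36 TPM in WT Aundiff. The helicase gene *Helq* fell from 9.98 and 18.5 to 4.86 and 4.07 TPM (-1.42 ± 0.28, adjusted p = 0.0131).

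Of 14 checkpoint partners, 7 rose and 1 fell in WT (median 0.60), and 1 rose and 6 fell after Win18446 (median -0.39). Of all tested genes, 23.4% rose and 14.7% fell in WT (median 0.15), and 5.87% rose and 26.7% fell after Win18446 (median -0.19). *Mdc1*, the mediator that binds the histone mark laid down by ATM, fell from 28.9 and 34.2 to 8.42 and 11.8 TPM (-1.56 ± 0.19, adjusted p = 0.00282), and *Topbp1*, the activator of ATR, from 84.4 and 95.99 to 39.3 and 47.8 TPM (-1.04 ± 0.14, adjusted p = 0.00370). Non-homologous end joining, the competing repair route, had 2 of 10 genes higher and 2 lower in WT (median 0.08), against 23.4% and 14.7% of all genes. After Win18446 3 of the 10 were lower (median -0.18), against 26.7% of all genes (median -0.19). Among these 3 was its kinase gene *Prkdc*, from 27.4 and 34.6 to 12.9 and 16.4 TPM (-1.03 ± 0.18, adjusted p = 0.00702). The transcripts of *Polq*, *Mdc1*, *Topbp1* and *Prkdc* have 8628, 7335, 5224 and 12647 bases. They lie in the longest length bin, where 46.6% of coding genes were lower after Win18446, and *Helq*, at 3689 bases, lies outside it. The part of length in these falls was not tested. At 2 mo none of the genes tested on these 3 lists passed, with medians of 0.43, 0.45 and 0.29.

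Other cell types were checked beside the falls after Win18446. Spermatid markers summed to 158 and 141 TPM in PRC1ctrl and 17.8 and 18.1 TPM in PRC1cKO, with 10 of 10 tested genes lower. Spermatocyte markers, a cell type rich in HR proteins, summed to 510 and 546 TPM and to 561 and 495 TPM, and 1 of 10 tested was higher and 2 lower. One of the 2 was *Sycp2*, from 19.7 and 24.1 to 3.5 and 3.74 TPM. Leydig cell markers stood at 427 and 85.2 TPM in PRC1ctrl and 83.3 and 23.4 TPM in PRC1cKO, Sertoli cell markers at 168 and 88.8 TPM and at 161 and 96.1 TPM, and macrophage markers at 59.9 and 40.5 TPM and at 139 and 89.5 TPM. *Cd74* alone made up 19.6 and 15.7 TPM of the macrophage sums in PRC1ctrl and 115 and 70.4 TPM in PRC1cKO. The median log2 difference of the 6 macrophage genes tested was -0.47, with 1 higher and none lower. The part of these cell types in the members' differences was not tested.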

How the data were processed

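Aundiff and Adiff were sorted from pooled testes and profiled by RNA-seq, with 2 biological replicates per group. The authors deposited TPM values, estimated with RSEM 1.3.3 after trimming with Trim Galore 0.6.6, on GRCm38, and they ran their own tests on counts with DESeq2 1.28.1. Only TPM was used here, so read depth is unknown and no counting interval is given. Gene lengths and strands came from gencode M21. Genes with at least 1 TPM in at least 2 of the libraries compared were tested on log2(TPM + 1) with limma 3.58.1 (trend and robust options, R 4.3.3), and p was adjusted by Benjamini-Hochberg over all tested genes. A member rose or fell where the adjusted p was under 0.05. The interaction was fitted over the 8 PRC1 libraries. The script was tested on simulated data. Values per library were named for members called in any comparison, for the 3 highest and 3 lowest differences and for members that passed in one comparison and went the other way in another. The members and gene lists were chosen with earlier results of these data known. Alternatives covered the pseudocount, the filter, the scaling, the fit, the replicate block and each library left out. Removal of the trends on transcript length and GC was added after the data were seen. Results that turn on certain other genes are not reported here.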

Additional observations from a re-analysis of the deposited data

Results flagged for a closer look

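For 7 members the PRC1cKO contrast after Win18446 differed from that at 2 mo in a test of the difference itself (limma, adjusted over 18354 genes). All 7 passed downward, while 5.03% of all tested genes passed downward and 2.77% upward. None of the 7 calls held under every alternative. Under median-of-ratios scaling 1 member passed downward, against 1.54% of all genes. The log2 differences between the contrasts were -2.44 for *Fanca*, -2.33 for *Brca2*, -2.27 for *Slx4*, -1.68 for *Xrcc3*, -1.60 for *Fancg*, -1.55 for *Atm* and -1.38 for *Blm*. *Brca2* was higher in both PRC1cKO libraries at 2 mo and lower in both after Win18446. *Xrcc3* and *Fancg* were at 0.25 to 3.53 TPM and 0.54 to 2.63 TPM in the untreated PRC1 libraries, where the kit also differed, and treatment and kit cannot be told apart.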

How the results depend on the processing

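In WT, 8 members rose past a log2 fold change of 1 and 4 did so under median-of-ratios scaling as under quantile normalization. The 1 member lower past that fold became 0 with a pseudocount of 0.1, with no filter or with a mean TPM of at least 5, and 2 under median-of-ratios scaling. The WT median was 0.76 with a pseudocount of 0.1, 0.53 under median-of-ratios scaling and 0.61 under quantile normalization. Leaving out one library at a time, no more members passed than the 18 higher and 3 lower in the main WT fit. Fewer of all genes were higher in each of these fits, while the number of all genes lower moved either way. The median was 0.64 to 0.77 over the members and 0.12 to 0.21 over all tested genes. At 2 mo, the 0 members higher became 1 (1 past the fold) under quantile normalization, against 0.745% of all genes higher. In the fit over all libraries 7 (6) were higher, against 4.36% of all genes, and the median was 0.42 under median-of-ratios scaling. After Win18446, 11 members were lower without the filter and 10 in the fit over all libraries, against 8.23% and 10.0% of all genes. Higher were 1 under median-of-ratios scaling (median -0.20) and 2 under quantile normalization (median -0.18), against 15.45% and 13.5%. With one library left out fewer members were lower, as were fewer of all genes, and the median was -0.46 to -0.41. *Atr* turned to 0.0013 (adjusted p = 0.995, not passed) when the length trend was removed. For the difference between contrasts, 7 members became 3 with a pseudocount of 0.1, against 1.32% of all genes lower. They were also 3 under quantile normalization (median -0.68) and with the length trend removed (median -0.91), against 2.16% and 3.98%. They became 1 without the filter or with a mean TPM of at least 5, against 1.49% and 0.792%. Under median-of-ratios scaling 1 passed (median -0.45), against 1.54%. In the fit over all libraries 15 were lower, against 7.65%. With one library left out fewer members passed, with a median of -1.36 to -0.78. With the replicate block, 12 members were higher at 2 mo (7 past the fold), 19 were lower after Win18446 and 19 were lower in the difference, against 11.2%, 31.7% and 13.5% of all genes. The replicate numbers share no stated batch, and the correlation of same-numbered deviations was 0.16 in WT, 0.38 at 2 mo and 0.12 after Win18446, so they do not establish a pairing. The causes of these shifts were not tested, and without counts the depth behind low values is unknown.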
